A study of Mus musculus with 14 samples.

Results

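The regions described here are the places where Sin3A or Sin3B was mapped in growing C2C12 myoblasts, a mouse skeletal muscle cell line on a C3H background that fuses into myotubes when serum is withdrawn. Peaks of the 2 myoblast lists that overlapped by at least 1 bp were merged, and each merged region was classed by the protein it held. This gave 2843 regions, of 5137 when the myotube lists of both proteins were merged in as well. The Sin3A group held 2 samples and the Sin3B group 2 samples, both of cells growing in DMEM with fetal bovine serum, with no other treatment. The myotube samples used below for comparison came from confluent cells kept in DMEM with horse serum and detached selectively with diluted trypsin.

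The 2 deposited files of each myoblast group were identical, so each group counts as 1 list and no spread between cultures could be measured. Tests below therefore take regions as units and describe these lists. Shares carry 95% Clopper-Pearson intervals, which allow for counting error alone, and the read depth is unknown. The labels give the same antibody catalogue number for Sin3A and for Sin3B, with different lots (2 lots for the Sin3A myoblast samples and 1 lot for the Sin3B samples). How far the antibodies tell the proteins apart was not tested.

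Sin3A and Sin3B are paralogous scaffold proteins. Each carries paired amphipathic helix domains that dock sequence-specific factors such as MAD family proteins, and a region that holds the histone deacetylases HDAC1 and HDAC2. The complexes do not recognise DNA by themselves and lie mostly at promoters. In muscle cells Sin3 complexes have been studied as corepressors at cell cycle genes, which are silenced for good when myoblasts leave the cycle, and at genes of the contractile apparatus.

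The sequences of promoters that carried each class are shown first, because the classes are later compared by the short motifs these sequences hold. Each is the RefSeq window from 250 bases before to 50 after the gene start in GRCm38.p6, read 5′ to 3′ on the gene's own strand. Capitals mark matches, on either strand, to GGGCGG (the core bound by Sp and KLF factors), to CCGGAAG (the core of many ETS factor sites) and to the E2F words TTTCCCGC, TTTGGCGC or TTTCGCGC. The first pair lay at Sin3A-only regions, the next pair at regions with both proteins and the last 4 at Sin3B-only regions. In order, they are Kmt5b (chr19:3767639-3767938, plus strand), Adamts1 (chr16:85803064-85803363, minus strand), Cdca5 (chr19:6084847-6085146, plus strand), Cfap298 (chr16:90934800-90935099, minus strand), Cdc16 (chr8:13757406-13757705, plus strand), Lsg1 (chr16:30587540-30587839, minus strand), Rsl1d1 (chr16:11203243-11203542, minus strand) and Gabpa (chr16:84834874-84835173, plus strand).
Kmt5b: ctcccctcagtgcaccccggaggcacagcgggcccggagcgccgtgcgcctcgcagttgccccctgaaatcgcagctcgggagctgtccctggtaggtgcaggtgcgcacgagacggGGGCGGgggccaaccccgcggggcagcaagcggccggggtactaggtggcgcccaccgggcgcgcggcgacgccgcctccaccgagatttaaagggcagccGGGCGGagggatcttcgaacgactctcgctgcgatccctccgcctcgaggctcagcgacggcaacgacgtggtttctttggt
Adamts1: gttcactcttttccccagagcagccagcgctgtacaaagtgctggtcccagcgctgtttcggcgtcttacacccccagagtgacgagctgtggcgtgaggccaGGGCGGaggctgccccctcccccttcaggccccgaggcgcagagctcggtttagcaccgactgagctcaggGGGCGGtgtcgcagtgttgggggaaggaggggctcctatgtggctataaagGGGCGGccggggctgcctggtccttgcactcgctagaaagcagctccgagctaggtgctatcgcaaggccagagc
Cdca5: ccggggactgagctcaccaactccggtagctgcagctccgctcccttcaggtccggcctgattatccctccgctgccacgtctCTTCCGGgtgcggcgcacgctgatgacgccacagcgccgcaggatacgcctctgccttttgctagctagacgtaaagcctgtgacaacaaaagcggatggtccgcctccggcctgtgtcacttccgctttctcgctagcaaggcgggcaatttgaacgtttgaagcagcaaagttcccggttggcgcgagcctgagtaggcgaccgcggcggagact
Cfap298: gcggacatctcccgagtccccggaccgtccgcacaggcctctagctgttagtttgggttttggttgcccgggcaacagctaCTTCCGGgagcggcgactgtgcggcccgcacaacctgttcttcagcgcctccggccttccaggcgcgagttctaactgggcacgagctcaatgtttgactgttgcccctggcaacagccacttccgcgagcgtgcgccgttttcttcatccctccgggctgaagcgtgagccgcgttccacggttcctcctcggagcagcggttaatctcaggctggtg
Cdc16: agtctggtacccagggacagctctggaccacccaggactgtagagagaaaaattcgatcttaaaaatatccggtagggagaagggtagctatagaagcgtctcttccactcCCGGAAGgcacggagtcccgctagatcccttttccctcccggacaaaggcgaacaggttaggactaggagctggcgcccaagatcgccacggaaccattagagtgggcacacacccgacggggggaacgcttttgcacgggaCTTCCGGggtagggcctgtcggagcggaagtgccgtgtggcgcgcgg
Lsg1: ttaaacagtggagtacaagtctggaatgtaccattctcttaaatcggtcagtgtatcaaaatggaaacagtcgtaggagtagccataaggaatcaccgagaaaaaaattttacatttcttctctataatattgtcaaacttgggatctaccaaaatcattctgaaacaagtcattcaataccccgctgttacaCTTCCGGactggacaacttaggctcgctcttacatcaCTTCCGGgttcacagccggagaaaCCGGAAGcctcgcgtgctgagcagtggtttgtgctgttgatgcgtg
Rsl1d1: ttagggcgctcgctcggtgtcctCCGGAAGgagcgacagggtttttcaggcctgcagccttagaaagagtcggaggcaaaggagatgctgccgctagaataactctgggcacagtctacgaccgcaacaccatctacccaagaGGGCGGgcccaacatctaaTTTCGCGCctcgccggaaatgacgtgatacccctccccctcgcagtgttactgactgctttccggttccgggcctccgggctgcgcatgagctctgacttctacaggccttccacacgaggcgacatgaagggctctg
Gabpa: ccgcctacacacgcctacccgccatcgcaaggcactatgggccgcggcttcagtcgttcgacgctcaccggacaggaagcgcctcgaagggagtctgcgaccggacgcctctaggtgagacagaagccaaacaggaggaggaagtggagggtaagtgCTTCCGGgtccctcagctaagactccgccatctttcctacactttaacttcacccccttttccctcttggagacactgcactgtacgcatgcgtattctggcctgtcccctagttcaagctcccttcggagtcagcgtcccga

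Sin3B was found at many more places than Sin3A in growing myoblasts, and most places held 1 protein. The Sin3A list had 691 peaks and the Sin3B list 2387. Of the Sin3A peaks, 229 (33.1%, interval 29.6 to 36.8%) overlapped a Sin3B peak. From the other side, 232 Sin3B peaks (9.72%, 8.56 to 11.0%) overlapped a Sin3A peak. The regions divided into 462 with Sin3A only (16.3%), 226 with both (7.95%) and 2155 with Sin3B only (75.8%). These numbers follow from the list lengths as much as from where the peaks lie. When the Sin3B list was cut to its 691 widest peaks, 10.4% of the Sin3A peaks overlapped it, and among the wider part of each list the share was 19.3%.

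The rule itself keeps the centres of overlapping peaks close, so their spacing is a description. The 226 shared regions held 235 overlapping pairs of peaks, and 218 of them held 1 peak of each protein. The centres of a pair lay a median of 110 bp apart (quartiles 41.0 and 218 bp, at most 1036 bp). The median overlap was 312 bp, or 93.5% of the shorter peak. In 66 pairs the Sin3A peak lay wholly inside the Sin3B peak, and in 31 pairs the reverse held. The Sin3B peak was the wider of the pair in 144 pairs and the Sin3A peak in 90. At the edge of the rule, 17 pairs met over less than 50 bp, the smallest overlap being 4 bp.

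Over the whole lists, Sin3A-only regions were seldom near misses. Of the 462, 21 (4.55%) lay within 1 kb of a Sin3B peak and 48 (10.4%) within 10 kb, and the median gap was 198 kb. Of the 2155 Sin3B-only regions, 29 (1.35%) lay within 1 kb of a Sin3A peak. The nearest neighbours just outside the rule were at chr19:5725974-5726479, which touched a Sin3B peak without sharing a base, at chr8:87822993-87823505 with a gap of 54 bp, and at chr14:69902057-69902501 with a gap of 55 bp. All positions of peaks are in the build of the deposited files, counted from 1.

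**Figure D1:**
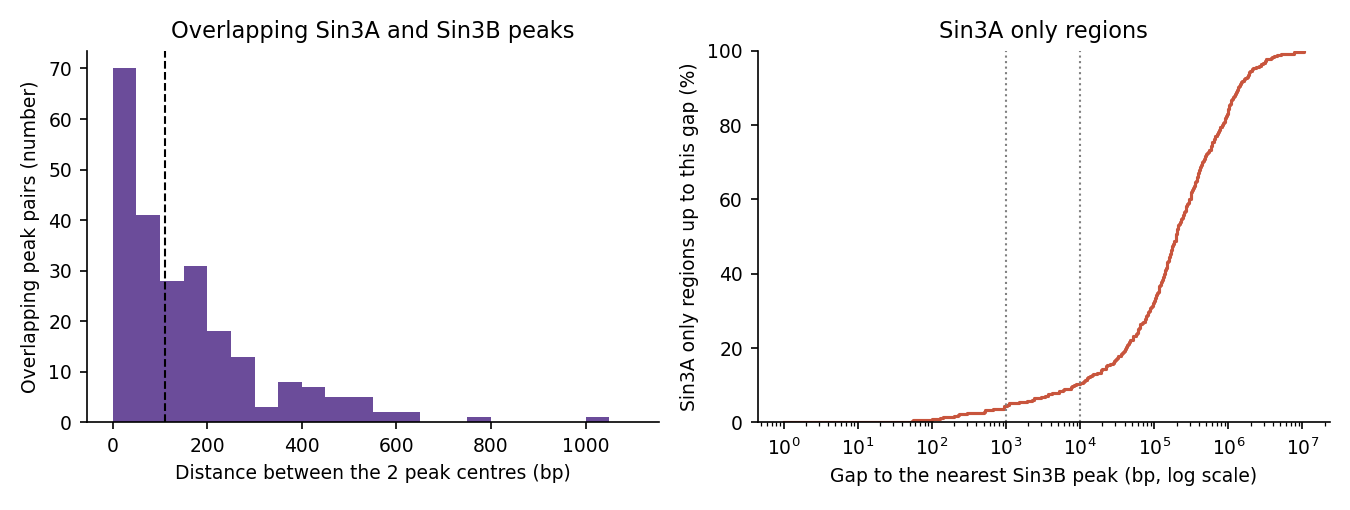
Left, distance in bp between the centres of the 235 overlapping Sin3A and Sin3B peak pairs, with a dashed line at the median of 110 bp. Right, cumulative share (%) of the 462 Sin3A-only regions by the gap in bp (log scale, a gap of 0 drawn at 1) to the nearest Sin3B peak, with dotted lines at 1 kb and 10 kb, below which 4.55% and 10.4% of the regions lie.

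Peak widths differed little between classes. A width is the length of the called interval, and the lists hold no peak score. Under 50 bp wide were 23 peaks of the Sin3A list and 60 of the Sin3B list. The Sin3A peaks of Sin3A-only regions had a median width of 403 bp (quartiles 277 and 496 bp), and those of shared regions 419 bp. The Sin3B peaks of shared regions had a median width of 488 bp, and those of Sin3B-only regions 498 bp.

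The classes were spread over all chromosomes for which both lists had peaks, with more Sin3A on 2 of them. A Sin3A peak was present in 36.2% of the regions on chromosome 15 and in 35.5% of those on chromosome 10. On the other chromosomes this share ran from 14.7% on chromosome 18 to 27.7% on chromosome 2. Chromosome 15 held 51 Sin3A-only regions (11.0% of the class) against 134 Sin3B-only regions (6.22%), and chromosome 10 held 42 (9.09%) against 111 (5.15%). The share of Sin3A peaks that overlapped Sin3B was lowest on chromosome 6, at 20.7% (7.99 to 39.7%), and highest on chromosome 3, at 46.7% (28.3 to 65.7%), and every chromosome's interval held the value over all chromosomes, 33.1%. No test was run by chromosome.

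**Figure D2:**
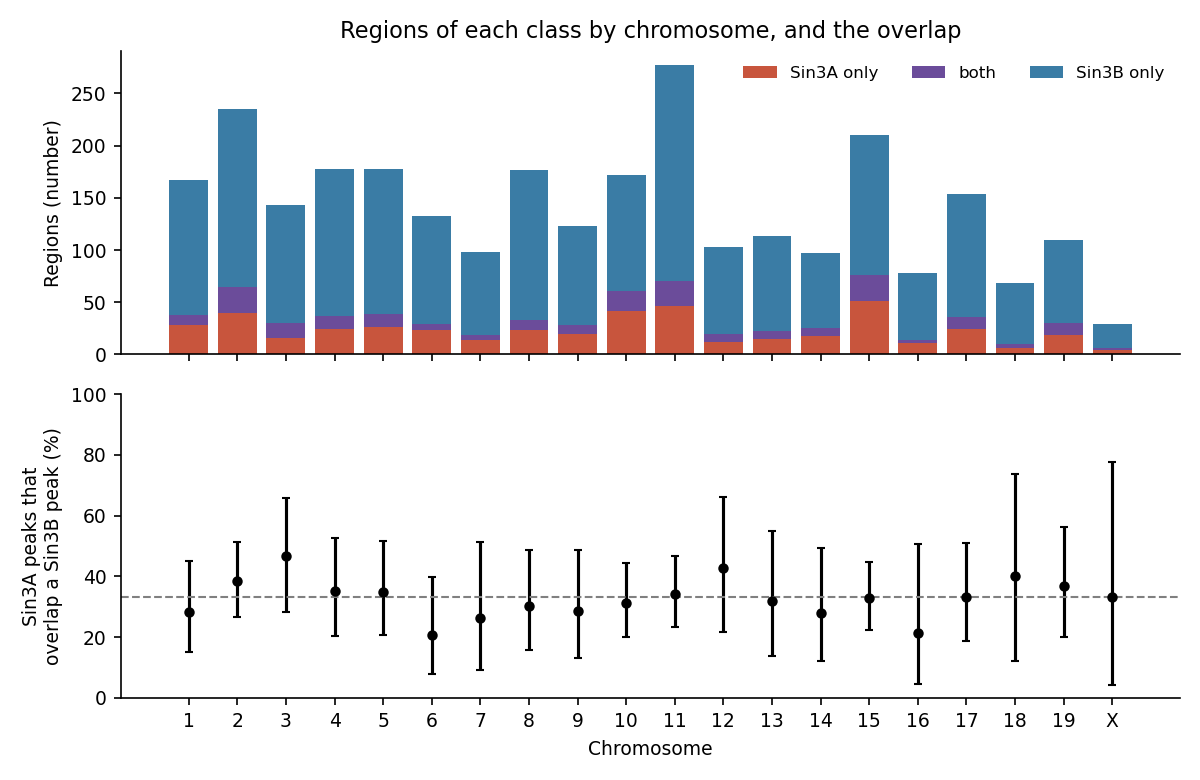
Top, number of regions of each class on each chromosome. Bottom, share (%) of the Sin3A peaks of each chromosome that overlap a Sin3B peak, with 95% Clopper-Pearson intervals and a dashed line at the overall 33.1%, which lies inside every interval.

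The 3 classes differed in how often the same place carried a peak in myotubes. The comparison asks which myoblast sites are also found after differentiation. A myotube peak of either protein lay at 182 of the 226 shared regions (80.5%, 74.8 to 85.5%), at 1275 of the 2155 Sin3B-only regions (59.2%, 57.1 to 61.2%) and at 117 of the 462 Sin3A-only regions (25.3%, 21.4 to 29.5%). By Fisher's exact test, two-sided and with Benjamini-Hochberg adjustment over 15 tests, shared and Sin3B-only regions differed by 21.4 percentage points (adjusted p = 2.08e-10). By the same exact test, Sin3A-only minus Sin3B-only regions was -33.8 points (adjusted p = 3.90e-40), and Sin3A-only minus shared regions was -55.2 points (adjusted p = 2.94e-43).

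The myotube peaks were mostly those of Sin3B, in every class. Of the Sin3A-only regions, 68 (14.7%) had Sin3B alone in myotubes, 40 (8.66%) had both proteins and 9 (1.95%) had Sin3A alone. Of the shared regions, 100 (44.2%) had Sin3B alone, 80 (35.4%) both and 2 (0.885%) Sin3A alone. Of the Sin3B-only regions, 1037 (48.1%) had Sin3B alone, 218 (10.1%) both and 20 (0.928%) Sin3A alone. The myotube list of Sin3B, with 3769 peaks, was also far longer than that of Sin3A, with 759.

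The share with a myotube peak of Sin3A itself did not differ past the threshold between Sin3A-only and Sin3B-only regions. The counts were 49 of 462 (10.6%, 7.95 to 13.8%) and 238 of 2155 (11.0%, 9.75 to 12.4%), a difference of -0.438 percentage points (adjusted p = 1.00, Fisher's exact test, two-sided). Shared regions stood above both, at 82 of 226 (36.3%, 30.0 to 42.9%). The differences from shared regions had, by the same exact test, adjusted p = 1.61e-14 for Sin3A-only and 5.48e-20 for Sin3B-only regions. In the wider part of each list the sign of the small difference turned, with Sin3A-only regions 5.23 points above Sin3B-only regions (exact test, adjusted p = 0.0191). A myotube peak of Sin3B lay at 108 Sin3A-only regions (23.4%), 180 shared regions (79.6%) and 1255 Sin3B-only regions (58.2%).

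Width moved with these shares. The Sin3A peaks of Sin3A-only regions had a median width of 454 bp where a myotube peak was present and 386 bp where none was. For the Sin3B peaks of Sin3B-only regions the medians were 546 and 442 bp. In the wider part of each list, Sin3A-only minus Sin3B-only regions was -18.3 points for any myotube peak and -19.5 for a Sin3B myotube peak, in place of -33.8 and -34.9. With the Sin3B list cut to its 691 widest peaks, shared minus Sin3B-only regions was 13.3 points for any myotube peak, in place of 21.4. All of these kept their direction and stayed past the threshold, and the part of depth was not tested. Of the 10 regions ranked first by width in each class, 8 with Sin3A only, 10 with both and 9 with Sin3B only had a myotube peak. The first Sin3A-only region was chr10:84038952-84040213, 1262 bp wide, with both proteins in myotubes. The first shared region was chr12:74145064-74147349, with Sin3B in myotubes. The first Sin3B-only region was chr5:31481067-31483017, 1951 bp wide, with both proteins in myotubes.

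**Figure D3:**
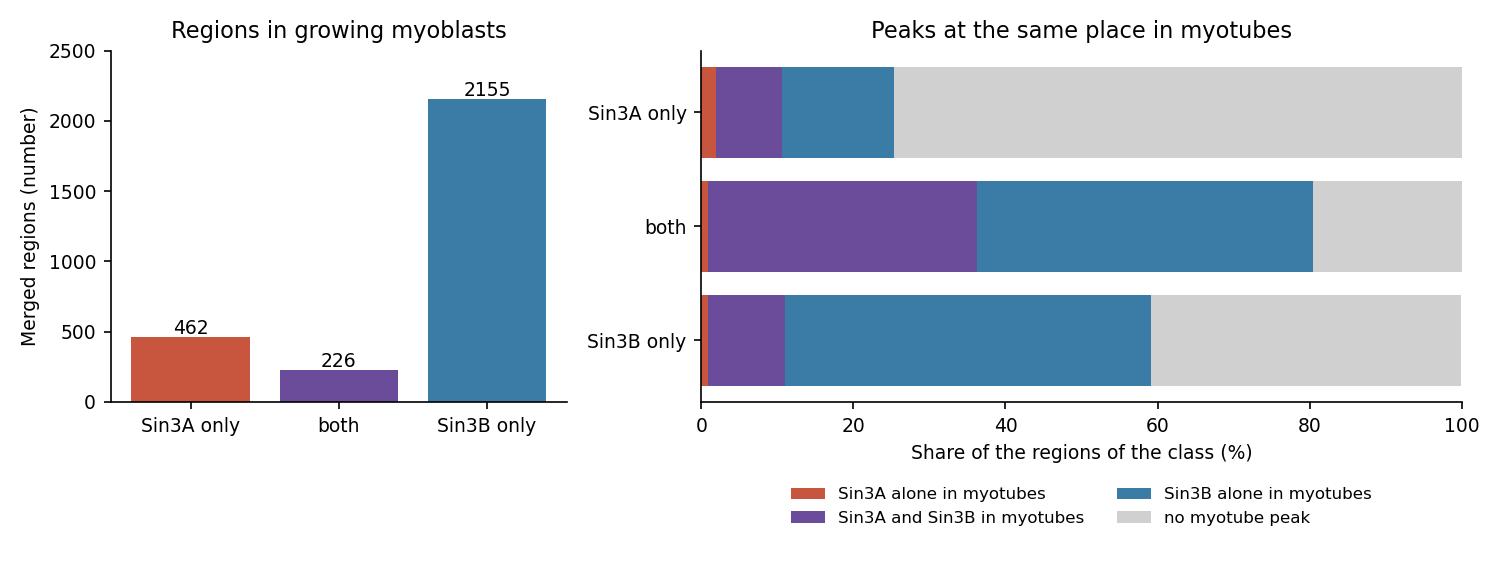
Left, number of merged regions of each class in growing myoblasts (462, 226 and 2155). Right, share (%) of the regions of each class that overlap a myotube peak of Sin3A alone, of both proteins, of Sin3B alone or of neither, which is 74.7%, 19.5% and 40.8% from top to bottom.

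Genes could be read off for a small part of the genome. The gene table at hand is of the GRCm38.p6 assembly and the sources used here do not name the build of the peaks. In 6 stretches, 119 Mb in all, positions of peaks and gene starts coincided without any shift. These are most of chromosome 16 and the first megabases of chromosomes 5, 8, 12, 13 and 19. They were found with the myotube lists, of which 193 of 204 merged regions there (94.6%) lay within 1 kb of a gene start, against 8.04% of 3605 elsewhere. The stretches were chosen as runs of such regions, so this contrast is largely set by the choice. Those on chromosomes 12 and 13 rest on 4 and 5 myotube regions. The 6 stretches hold 135 of the 2843 myoblast regions (4.75%), namely 18 with Sin3A only, 8 with both and 109 with Sin3B only. Everything said of genes below holds for these 135 regions. Sin3a, Sin3b, Myod1, Myog and Myc lie outside the stretches, so their regions are not reported here.

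Most Sin3B-only and shared regions lay at gene starts or ends, and Sin3A-only regions did so in about as many cases as not. Within 1 kb of a start lay 95 of 109 Sin3B-only regions (87.2%, 79.4 to 92.8%), 8 of 8 shared regions (100%, 63.1 to 100%) and 10 of 18 Sin3A-only regions (55.6%, 30.8 to 78.5%). By Fisher's exact test, two-sided, over the same 15 tests, Sin3A-only minus Sin3B-only regions was -31.6 percentage points (adjusted p = 0.00558). Of the 10 Sin3A-only regions, 6 had a start of known strand, and the others may lie at 3′ ends. With known strands alone this difference was -43.7 points (exact test, adjusted p = 6.78e-04). The stretches were chosen so that myotube regions lie at starts, and all 8 shared regions coincide with a myotube peak. Their share was thus largely set by that choice, and nothing is drawn from its tests against the other classes. It also counts 3 regions, at Mcm4 and Prkdc, Neat1 and Shcbp1, by gene ends of unknown strand, and with known strands alone shared minus Sin3B-only regions was -14.6 points, in place of 12.8. The choice bears on the other classes too. Among regions without a myotube peak, 7 of 13 Sin3A-only (53.8%, 25.1 to 80.8%) and 31 of 40 Sin3B-only regions (77.5%, 61.5 to 89.2%) lay at a start, a difference of -23.7 points that missed the threshold (exact test, adjusted p = 0.171). It also did so when a start was taken to reach 5 kb (-13.0 points, exact test, adjusted p = 0.0976).

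The regions away from starts were mostly inside genes. Of the 18 Sin3A-only regions, 6 lay inside a gene and 2 between genes. Of the 109 Sin3B-only regions, 11 lay inside a gene and 3 between genes. Some of these were very narrow. Between genes these were chr16:32082631-32082644 (14 bp) and chr19:5808448-5808465 (18 bp). Inside Tiam1, over 10 kb from any start, lay chr16:90065940-90065952 (13 bp). More than 10 kb from any start lay 2 Sin3A-only regions, 0 of 8 shared regions and 2 Sin3B-only regions, and no pair of classes passed the exact test (adjusted p between 0.131 and 1.00). With starts of protein-coding genes alone, the difference between Sin3A-only and Sin3B-only regions over 10 kb from a start was 27.8 points (exact test, adjusted p = 0.00290). The choice of stretches by myotube regions at starts bears on this share too, so nothing is drawn from that value. Among regions without a myotube peak, with all starts, the difference was 15.4 points and missed the threshold (exact test, adjusted p = 0.0692).

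The distance from the start could be measured where the strand is known. For the 84 Sin3B-only regions with a start of known strand, the centre lay a median of 58.5 bp into the gene (quartiles -24.5 and 192 bp). Of these 84, 65 (77.4%, 67.0 to 85.8%) lay within 300 bp of the start. The centre lay downstream of the start in 56 of the 84 Sin3B-only regions (66.7%) and in 4 of the 6 Sin3A-only regions (66.7%). The 6 Sin3A-only regions had a median of 28.5 bp, ranging from -397 to 218 bp. The 5 shared regions ranged from -304 to 1340 bp with a median of 792 bp, and 1 of the 5 was within 300 bp. Of the 95 Sin3B-only regions at a start, 22 (23.2%) faced starts on both strands, as did 1 of 10 Sin3A-only and 1 of 8 shared regions.

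**Figure D4:**
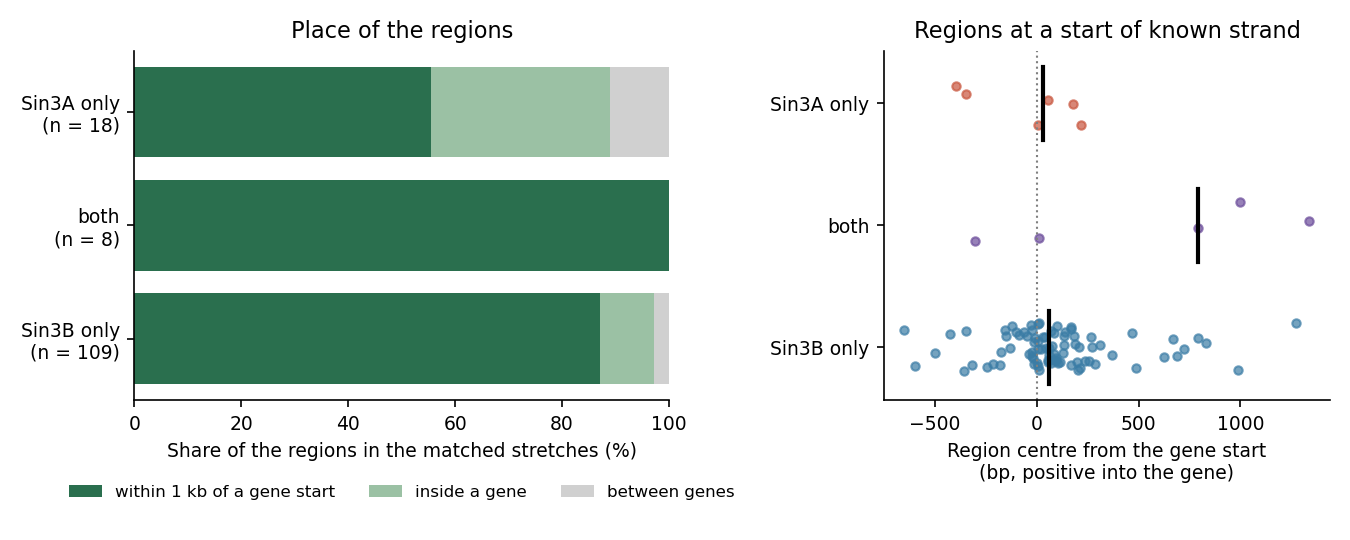
Left, share (%) of the 135 regions in the matched stretches that lie within 1 kb of a gene start, inside a gene or between genes, by class. Right, distance in bp of each region's centre from a gene start of known strand, positive into the gene, with vertical bars at the medians of 28.5, 792 and 58.5 bp; points are spread vertically for legibility.

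Of the 8 shared regions, 5 lay at a start of known strand and 3 at a gene end of unknown strand, and all 8 held Sin3B in myotubes. The first by rank was at Runx1, a transcription factor of the RUNX family (chr16:92695421-92696558, a Sin3A peak of 536 bp and a Sin3B peak of 1138 bp). A further 2 Sin3B-only regions lay inside Runx1, 1518 and 2077 bp from the nearest Sin3A peak. The next covered the divergent starts of Cdca5, which encodes the cohesin protector sororin, and Zfpl1 (chr19:6084436-6085493, 452 and 1058 bp). Sin3A was retained in myotubes there, as at Npas4, an activity-regulated bHLH-PAS factor (chr19:4988868-4989491, 528 and 547 bp), and at Shcbp1 (chr8:4779278-4779777, 300 and 500 bp). At the neighbouring pair Mcm4 and Prkdc, which encode a subunit of the replicative helicase and the catalytic subunit of the DNA-dependent protein kinase, the Sin3A peak was the wider (chr16:15637037-15638101, 730 and 456 bp). The others were at Neat1, the long noncoding RNA that builds paraspeckles (chr19:5844993-5845529, 338 and 537 bp), at Cfap298, a gene of motile cilia (chr16:90934871-90935435, 438 and 453 bp), and at Cfl1, which encodes the actin-severing protein cofilin (chr19:5491189-5491720, 443 and 398 bp).

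Of the 18 Sin3A-only regions, the widest 10 were named by rank. The first lay inside Neat1, 1672 bp from its nearer end (chr19:5842920-5843808, 889 bp), with Sin3B in myotubes. It was followed after 224 bp by a Sin3B-only region and then by the shared region above, so that 3 neighbouring places in Neat1 fell into the 3 classes. Kmt5b, a methyltransferase of histone H4 lysine 20, had its start inside a 613 bp Sin3A peak (chr19:3767588-3768200), with its centre 4 bp past the start and no myotube peak. Tfap4, a bHLH factor that binds E-boxes, carried 2 Sin3A-only regions. The 541 bp region 448 bp from one end of the gene (chr16:4559774-4560314) had no myotube peak, and the 499 bp region 1356 bp from it (chr16:4558908-4559406) had both proteins in myotubes. Adamts1, a secreted metalloproteinase, had a 537 bp peak over its start (chr16:85802628-85803164), 991 bp from a Sin3B-only region inside the gene. Pcx, which encodes pyruvate carboxylase, had a 524 bp peak 84 bp from its start (chr19:4509865-4510388). The others of the 10 were at Ehbp1l1 (506 bp), inside Carns1, which encodes carnosine synthase (455 bp), and at Fam162a (454 bp) and Fam89b (362 bp).

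At 3 genes a Sin3A-only and a Sin3B-only region lay side by side. These were Ehbp1l1, where the peaks touched, Fosl1, which encodes an AP-1 subunit, with a gap of 137 bp, and Fam162a, with a gap of 231 bp. At Fosl1 neither region had a myotube peak. At Ehbp1l1 and Fam162a both regions held both proteins in myotubes, so these places were classed apart in myoblasts and held the same pair of proteins later. The other Sin3A-only regions at a start were at Gm35330 and at the divergent pair Synj1 and 4930404I05Rik. Those elsewhere lay inside Gm26562, 4930529L06Rik and Cryzl1, and 2 lay between genes. Of the 18, 5 had a myotube peak. Like those at the 3 genes, the Sin3A-only regions at Neat1 and Adamts1 lay within 1 kb of a Sin3B peak. Such neighbours were thus more frequent among the 18 than in the whole class, where 4.55% had one.

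The 10 widest Sin3B-only regions in the stretches all covered a gene start or gene end. The first was at Cdc16, a subunit of the anaphase-promoting complex (chr8:13757227-13758351, 1125 bp), and alone among the first 10 it had no myotube peak. Lsg1, a GTPase of large ribosomal subunit maturation, followed with 1110 bp (chr16:30587248-30588357). The divergent pair Rsl1d1, a nucleolar protein of ribosome synthesis, and 2610020C07Rik had a region of 1035 bp (chr16:11202768-11203802) and both proteins in myotubes. Cct8, a chaperonin subunit, had 983 bp, and Vps51, a vesicle tethering factor, 976 bp. The pair Fau and Mrpl49, which encode a ribosomal protein precursor and a mitochondrial ribosomal protein, shared a region of 969 bp. Banf1, a DNA-bridging protein of the nuclear envelope, and Eif1ad shared 946 bp. The remaining regions were at Ighmbp2 and Mrpl21 (929 bp), at Rin1 and one end of Brms1 (904 bp) and at Yif1a (895 bp).

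Counted by gene, Sin3B-only regions, by far the largest class in the stretches, marked far more starts than the other classes. Of 946 protein-coding genes in the stretches, 117 (12.4%) had a Sin3B-only region within 1 kb of a start, 9 (0.951%) a shared region and 9 (0.951%) a Sin3A-only region, and 132 (14.0%) had any. With long noncoding RNA genes included, the counts of 1453 were 126 (8.67%), 10 (0.688%) and 11 (0.757%), or 144 (9.91%) for any class. With the Sin3B list cut to its 691 widest peaks, the counts in the same class order were 46, 3 and 18. The gene table gives no strand for genes that lack a promoter window, so for those both ends were taken as possible starts and some may be 3′ ends.

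Of 730 genes on 18 lists of pathways and cell types, 42 lay in the stretches, and 22 of these had no region at a start. The Sin3B-only class held 18, the shared class 2 and the Sin3A-only class 1, with Fosl1 in 2 classes, beside the shares of all protein-coding genes just given. These are counts without a test, and the listed genes in the stretches are few.

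Cell cycle and replication genes had a region with Sin3B within 1 kb in 4 of 4 cases. Of all protein-coding genes in the stretches, 14.0% had a region of any class. Dbf4, the activator of the CDC7 kinase, Cdc45, a part of the replicative helicase, and Rfc4, a clamp loader subunit, had a Sin3B-only region, and Mcm4 had a shared one. The region counted for Cdc45 overlapped Ufd1 on the other strand, 51 bp from the Ufd1 start. It did not overlap the promoter window of Cdc45. The region of Dbf4 faced Slc25a40. The regions at Cdc45 and Rfc4 also had Sin3B in myotubes, and that at Dbf4 had no myotube peak. From the E2F and Rb list, Tfdp1, the dimerisation partner of E2F factors, was the gene in the stretches and had no region.

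All 4 genes of the mitochondrial ribosome and import list had a Sin3B-only region, namely Mrpl11, Mrpl49, Timm44 and Tomm70a. Of all protein-coding genes in the stretches, 12.4% had a Sin3B-only region. Of 5 genes of the respiratory chain and ATP synthase, Atp5j, Ndufs8 and Ndufv1 had one and Atp5o and Ndufb4 had none. Atp5j shares its region with Gabpa, which encodes the DNA-binding subunit of an ETS factor known to act on genes of oxidative phosphorylation. The regions at Mrpl11, Mrpl49, Tomm70a, Atp5j and Ndufv1 were also bound by Sin3B in myotubes, and those at Timm44 and Ndufs8 had no myotube peak.

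Growth transcription factors carried regions in 4 of 4 cases, beside 14.0% of all protein-coding genes in the stretches. Runx1 was in the shared class, Gabpa and Klf6 in the Sin3B-only class and Fosl1 in both single-protein classes. Of the lists for muscle differentiation, few genes lay in the stretches. None of 3 sarcomere and calcium handling genes (Actn3, Myom2 and Srl) had a region. Of 2 myogenic regulators, Hes1, a repressor downstream of Notch, had a Sin3B-only region 237 bp from one end, with Sin3B in myotubes, and Snai2 had none. Jam2, a cell adhesion molecule of myoblast fusion, had a Sin3B-only region 682 bp from one end and no myotube peak.

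Of the Sin3-HDAC list, Brms1, itself a member of Sin3 complexes, had 2 Sin3B-only regions within reach of its ends, and Gatad1 and Ing1 had none. Among ribosomal proteins Fau had a region, and Rpl24 and Rpl35a had none. The splicing factor gene Sf3b2 had a Sin3B-only region. The lists of translation factors (Eif4a2, Eif4g1), chromatin regulators (Crebbp, Dnmt3a, Kat5), extracellular matrix (Col4a1, Col4a2), adipocyte and osteoblast genes (Adipoq, Cebpd), proteasome (Psmd2) and glycolysis (Pfkp) had 0 genes with a region, and the neuronal list had 0 genes in the stretches.

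The promoter windows under the regions were CpG-rich in every class. A window was counted with a class where it overlapped a region of that class. There were 84 such windows at 70 Sin3B-only regions, 3 at 2 shared regions and 5 at 5 Sin3A-only regions. The median ratio of observed to expected CpG was 0.871 at Sin3B-only regions, 1.01 at shared and 0.956 at Sin3A-only regions. It was 0.347 in the 1075 windows of the same stretches that no region overlapped, called windows without a region below. Some of the 1075 belong to genes with a region within 1 kb of the start, such as Cdc45, Npas4 and Cfl1. In the same class order, median GC was 60.3%, 62.7% and 68.0%, against 52.3% in the 1075 windows. Among windows with a CpG ratio of at least 0.6 the order turned for Sin3B-only regions. Median GC there was 61.0% in 72 Sin3B-only windows and 64.7% in 377 windows without a region. Windows of divergent genes share part of their sequence, so they are not independent of each other.

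Of the 11 motifs searched, the ETS core CCGGAAG differed by the most percentage points between Sin3B-only windows and those without a region. No test was run on these shares, which overlapping windows of neighbouring genes enter more than once. It was present in 34 of 84 (40.5%, 29.9 to 51.7%), against 8.56% (6.95 to 10.4%) of the windows without a region and 8.86% of all 32851 windows. Since CpG-rich promoters hold such words more often, the shares were also taken among windows with a CpG ratio of at least 0.6. There, 30 of 72 Sin3B-only windows (41.7%, 30.2 to 53.9%) and 17.8% (14.0 to 22.0%) of 377 windows without a region held it. The Lsg1 window printed above held it 3 times, the Cdc16 window 2 times and those of Rsl1d1 and Gabpa once each. All 3 windows at shared regions held it, including Cdca5 and Cfap298 above, and 1 of 5 at Sin3A-only regions did.

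The other words differed by fewer points. In windows with a CpG ratio of at least 0.6, the cyclic AMP response element TGACGTCA was in 13.9% (6.87 to 24.1%) of the Sin3B-only windows against 3.98% (2.24 to 6.48%) of those without a region. The NRF1 word GCGCATGC was in 12.5% (5.88 to 22.4%) against 3.71% (2.04 to 6.15%). The YY1 word AAGATGGC was in 12.5% (5.88 to 22.4%) against 4.51% (2.65 to 7.12%). E2F words were in 6.94% (2.29 to 15.5%) against 2.39% (1.10 to 4.48%), and the intervals of these last 3 overlap. All the intervals take windows as independent, which those of divergent genes are not. Nothing is therefore drawn from their overlap or separation. With no limit on the CpG ratio, E2F words were in 7.14% (2.67 to 14.9%) against 0.930% (0.447 to 1.70%) without a region. The Rsl1d1 window above held one of them. At a CpG ratio of at least 0.6, the Sp/KLF core GGGCGG was lower, at 58.3% (46.1 to 69.8%) against 73.7% (69.0 to 78.1%). With no limit on the CpG ratio it was higher, at 53.6% against 35.5% without a region. It was in 5 of 5 Sin3A-only windows, with 2 copies at Kmt5b and 3 at Adamts1, and in 0 of 3 shared windows, numbers too small to compare.

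Words that muscle factors can bind were counted as well. The E-box CAGCTG, which MyoD and myogenin can bind, was in 13 of the 84 windows (15.5%) against 16.1% (13.9 to 18.4%) without a region. The MEF2 word TATTTTTA was in 2.38% against 1.86% without a region and 2.72% of all 32851 windows. At a CpG ratio of at least 0.6 it was in 2.78% against 0.531% without a region, which is 2 windows in each set. The CCAAT box of NFY was in 38.1% against 37.4%. The E-box CACGTG was in 11.9% (5.86 to 20.8%) against 6.51% (5.11 to 8.16%). At a CpG ratio of at least 0.6 its shares lay close together, at 12.5% (5.88 to 22.4%) against 10.9% (7.92 to 14.5%). The AP-1 word TGANTCA was in 5.95% against 8.28% without a region. That order turned to 6.94% against 2.65% at a CpG ratio of at least 0.6. All words were searched on both strands, and both E-boxes and the cyclic AMP response element read the same on either strand. A match describes letters in the window and is not evidence of binding.

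**Figure D5:**
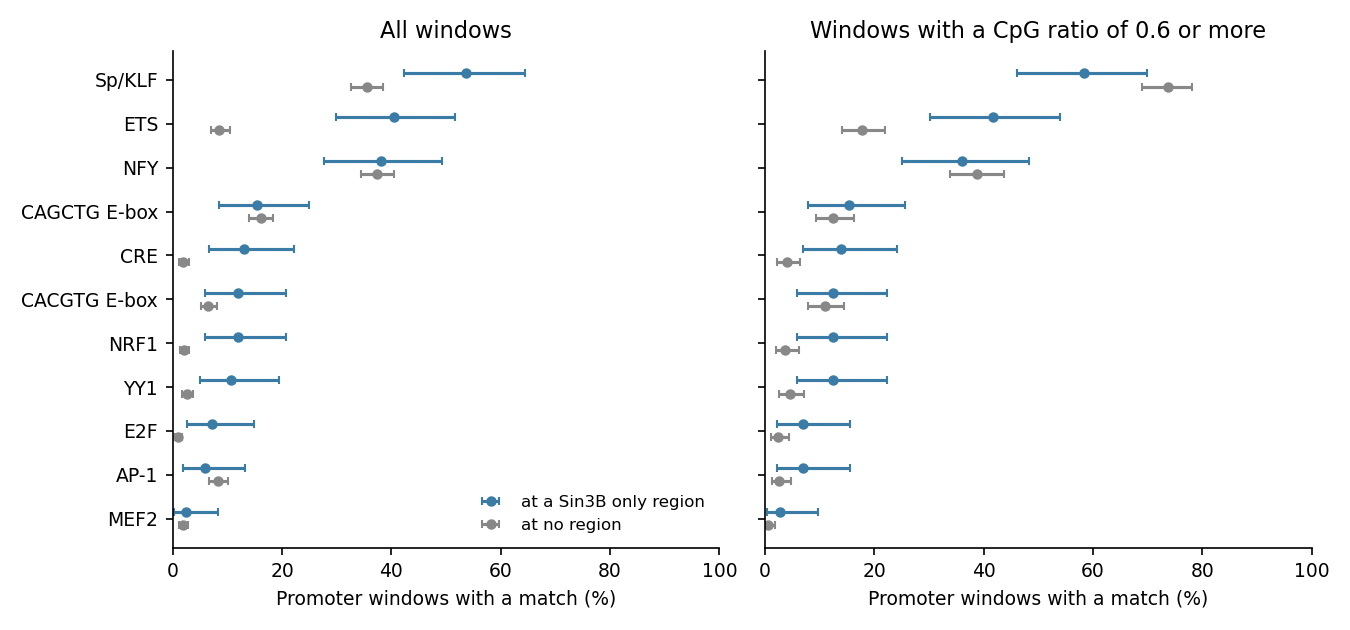
Share (%) of promoter windows that hold each word at Sin3B-only regions (blue) and at no region (grey) in the matched stretches, with 95% Clopper-Pearson intervals, for all windows (left, 84 and 1075) and for those with a CpG ratio of at least 0.6 (right, 72 and 377). The ETS word lies at 40.5% against 8.56% on the left and at 41.7% against 17.8% on the right, and the Sp/KLF word changes order between the panels.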

How the data were processed

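Chromatin immunoprecipitation and sequencing peaks were analysed in 2 myoblast groups, with the 2 myotube groups for comparison. The authors deposited 11 lists of positions (chromosome, start and end, with no score, count or gene name), of which 4 were distinct. The sources used here name no aligner, peak caller, threshold, build or pooling, and the 3 input samples were not analysed here. The members, gene lists, motifs and tests were chosen with earlier results of these data known.

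Positions were written from 1. Overlapping peaks were merged (at least 1 bp), and 95% Clopper-Pearson intervals were computed. In all, 5 features were compared over the 3 pairs of classes (15 tests, Fisher's exact test, two-sided, Benjamini-Hochberg, threshold 0.05). Gene starts were those of the RefSeq promoter table of GRCm38.p6 (windows of 300 bases). Genes without a window were given both gene ends. The planned gene tests were limited to stretches in which myotube regions scored 1 within 1 kb of a start and -1 elsewhere, in runs with a net score of at least 4. No coordinates were converted, and 68 regions on chromosome 18 had no gene starts. Genes outside these stretches are not analysed here.

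Named genes were the 10 regions ranked first by width in each class (shared regions by mean rank) and listed genes with a region. In the small classes the other regions in the stretches were named after their values were seen, as were the 3 genes with regions of both single-protein classes. Of the rule's sequences, those with a promoter window under the region were printed, with Cfap298 and Gabpa added for the ETS word. The CpG limit of 0.6 was set after the shares were seen. The method was tested on simulated lists. Alternatives were overlap by 50% of the shorter peak, merging within 1 kb, wider peaks, an equal number of peaks, no chromosome X, the other file of each group, windows of 500 bp and 5 kb, and protein-coding genes, and 4 others chosen after the data were seen. Scripts ran in Python 3.11.15 with scipy 1.17.1 for tests and intervals, pandas 2.3.3 and numpy 2.4.6 for tables, and matplotlib 3.10.9 for plots.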

Additional observations from a re-analysis of the deposited data

How the results depend on the processing

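Of 205 recomputed values, 162 kept their direction and side of the threshold or stayed within their error or within 1.5 times. No paired analysis was possible because the 2 files of each group are identical, so the values without replicate 1 equal the main ones throughout. These values count among the 162. Leaving out chromosome X or peaks under 50 bp (chosen after seeing the data) left 23 of 23 values in place. No stretch lies on chromosome X, so leaving it out could not change the gene start shares and gene counts. An overlap of 50% of the shorter peak gave shares of 29.1% of Sin3A and 8.38% of Sin3B peaks. The wider part of each list gave 19.3% and 5.69%, with 280 Sin3A-only, 66 shared and 1127 Sin3B-only regions. With 691 Sin3B peaks, 10.4% of Sin3A peaks overlapped, with 70 shared and 621 Sin3B-only regions.

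The difference of Sin3A-only from shared regions at gene starts passed the threshold (adjusted p = 0.0463 by the exact test), although the choice of stretches largely set the shared share, and lost its call in 8 settings. It was -42.1 percentage points (exact test, adjusted p = 0.0933) at 50% overlap, -25 in wider peaks, -33.3 with equal lists, -36.1 within 500 bp, -16.7 within 5 kb and -37.5 for protein-coding genes. Among settings chosen after seeing the data it was -29.2 with known strands alone and -60 on chromosome 16. Sin3A-only minus Sin3B-only lost its call within 5 kb (-13.0) and among regions without a myotube peak (-23.7, chosen after seeing the data), where no shared region was left. Shared minus Sin3B-only turned to -7.57 within 500 bp and to -14.6 with known strands.

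Over 10 kb from a start, Sin3A-only minus Sin3B-only passed the threshold with protein-coding genes (27.8) and known strands (32.5), and shared minus Sin3B-only turned to 7.0 and 25.6. Windows of 500 bp and 5 kb do not apply to this share. For a Sin3A myotube peak, Sin3A-only minus Sin3B-only turned to 0.476 at 50% overlap, 5.23 in wider peaks and 1.02 with equal lists. The cause of these changes was not tested.

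Genes at Sin3A-only regions, 11 in the main count, were 7 when merging within 1 kb, 18 with equal lists, 7 with known strands, 5 on chromosome 16 and 7 without myotube peaks. Genes at shared regions, 10, were 4 in wider peaks, 3 with equal lists, 6 with known strands, 4 on chromosome 16 and 0 without myotube peaks. Genes at Sin3B-only regions, 126, were 83 in wider peaks, 46 with equal lists, 70 on chromosome 16 and 41 without myotube peaks. Depth is unknown, and a place without a peak may lie under the caller's threshold.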

Other observations

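Of 1196 windows of 1 Mb that held a region, 370 held a Sin3A-only region, and 234 of these also held a Sin3B-only region, while 130 held no Sin3B peak at all. All 3 classes were present in 47 windows. The densest was chromosome 15 from 76 to 77 Mb in the build of the files, with 24 regions (4 with Sin3A only, 4 with both and 16 with Sin3B only). Chromosome 19 from 5 to 6 Mb held 20 (4, 2 and 14), a window that includes Neat1, Fosl1 and Ehbp1l1. Chromosome 8 from 87 to 88 Mb also held 20 (2, 4 and 14).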
